A study of Mus musculus with 12 samples.

Results

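The mitogen-activated protein kinase (MAPK) phosphatases of the DUSP family were read from BMDM (bone marrow-derived macrophages) 1 h after treatment with LPS, the antimicrobial peptide hBD3, or both. The 10 genes considered were Dusp1, Dusp2, Dusp4, Dusp5, Dusp6, Dusp7, Dusp8, Dusp9, Dusp10 and Dusp16, and every probe whose symbol in the platform's probe table was one of these was used. This gave 17 of the 25697 probes of the Illumina MouseRef-8 array, for 9 of the 10 genes and of the 16593 gene symbols on it. No probe of the table carried the symbol Dusp5.

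MAPK (ERK, JNK and p38) are switched on in macrophages within minutes of TLR4 ligation by phosphorylation of a threonine and a tyrosine in their activation loop. DUSP phosphatases remove both phosphates, and each member has its own place in the cell and its preferred kinases. Several DUSP genes are themselves transcribed early after MAPK activation, so the family is known as a negative feedback on the signal that induces it, and mice without Dusp1 overproduce cytokines after LPS.

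The 4 groups of 3 arrays were all of Balb/c BMDM grown from femoral bone marrow for 7 to 10 days in M-CSF at 20 ng/ml, rested overnight without M-CSF and harvested after 1 h. Cells were untreated, treated with LPS at 50 ng/ml (bacterial lipopolysaccharide, the TLR4 ligand), treated with hBD3 (human β-defensin 3), or treated with LPS plus hBD3. The labels give hBD3 as 5mg/ml and the study's methods give 5 μg/mL, and no label gives a dose for the combination. Each group was made from macrophages of 3 separate mice, but whether the same mice served all groups is not stated. The cells were cultured macrophages of one inbred strain, and only mRNA at 1 h was measured, not phosphatase protein or MAPK phosphorylation.

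Values are log2 of the quantile normalized probe signal, given with the SD over 3 arrays, and log FC is a difference between group means on that scale with limma's standard error (SE). A probe counted as detected on an array when its detection p was under 0.01, and a difference as passing the test at an adjusted p under 0.05 over all probes. The arrays detected 8958 to 9923 probes. LPS replicate 1 had the lowest number and correlated least with its group (mean r of 0.968, against 0.979 to 0.983 for the other LPS arrays), so results that rest on it are also given without it. All 5 measured macrophage markers of 8 were detected on every array, with mean signals of 10.42 to 10.90. None of the 7 lymphocyte and 6 dendritic cell markers measured was detected on any array, nor were 6 of 7 neutrophil markers. Of 6 stromal and erythroid markers, 3 were detected on no array, and the mean of the list was 5.59 to 5.92 on all arrays.

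The promoters of the 3 genes whose probes passed the test with LPS are shown first. RefSeq (GRCm38.p6) places Dusp1 at chr17:26505591-26508472, Dusp2 at chr2:127336159-127338377 and Dusp8 at chr7:142079487-142095907. The 250 bases before each start are at chr17:26508473-26508722 on the minus strand, chr2:127335909-127336158 on the plus strand and chr7:142095285-142095534 on the minus strand, the last one within the span annotated for Dusp8. Capitals mark the cAMP response element TGACGTCA, its core TGACG on either strand, and the E-box CACGTG.
Dusp1: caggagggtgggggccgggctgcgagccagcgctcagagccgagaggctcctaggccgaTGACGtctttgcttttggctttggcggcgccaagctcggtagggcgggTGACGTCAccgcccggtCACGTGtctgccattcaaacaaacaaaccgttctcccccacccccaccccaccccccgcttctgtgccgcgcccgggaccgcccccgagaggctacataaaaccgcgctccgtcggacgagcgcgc
Dusp2: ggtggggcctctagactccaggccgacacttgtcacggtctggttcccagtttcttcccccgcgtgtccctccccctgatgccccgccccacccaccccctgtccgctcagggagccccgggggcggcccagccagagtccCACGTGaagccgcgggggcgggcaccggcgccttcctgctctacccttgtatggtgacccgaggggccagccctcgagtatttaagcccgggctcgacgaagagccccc
Dusp8: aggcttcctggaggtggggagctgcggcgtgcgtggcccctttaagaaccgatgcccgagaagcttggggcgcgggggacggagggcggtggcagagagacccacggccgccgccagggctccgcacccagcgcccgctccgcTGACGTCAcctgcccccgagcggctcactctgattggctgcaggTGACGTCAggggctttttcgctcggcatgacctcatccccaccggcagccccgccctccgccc

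The full cAMP response element, bound by CREB and ATF factors, occurred once before Dusp1, starting 143 bases before the annotated start. It occurred at 2 places before Dusp8, starting 107 and 63 bases before it. Both strands were searched, and each full element also contains the core. The 6 other members with a promoter window (8 of 10 had one) held 0 full elements, while 1.55% of the 32851 mouse promoter windows of this length held one. The E-box occurred before Dusp1 (126 bases) and Dusp2 (109 bases) and in 6.02% of all windows. Dusp1, Dusp2 and Dusp8 each held 3 GC boxes (GGGCGG, in 32.7% of windows), while Dusp16 held 5, Dusp10 2, Dusp5 1, and Dusp6 and Dusp7 0. The core TGACG also had 1 match before Dusp5 and 1 before Dusp16, and occurred in 17.8% of windows. The TATA box (TATAAA, 12.4%), the AP-1 site (TGANTCA, 6.75%) and the NF-κB site (7.25%) had 0 matches in the windows of all 8 members. The CArG box, which SRF binds, was found only before Dusp5, at 2 places, and in 1.47% of all windows. These are matches of letters, not measured binding.

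Of the 17 DUSP probes, 10 were detected on all 12 arrays, for 7 genes (Dusp1, Dusp2, Dusp4, Dusp6, Dusp7, Dusp8 and Dusp16). Both Dusp10 probes lay near the limit and were detected on 11 and 7 arrays, and 1 Dusp4 probe was detected only on LPS replicate 3. The 4 remaining probes (the Dusp9 probe, 2 for Dusp6 and 1 for Dusp16) were detected on none, with signals of 5.19 to 5.73. The lowest signal among detected probes was 5.89 to 6.07 per array.

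LPS raised 3 members, Dusp1, Dusp2 and Dusp8. In LPS against untreated BMDM, 4 of the 17 probes rose and 0 fell (limma), against 0.105% of all 25697 probes that rose and 0% that fell. When the compared groups alone were fitted, 0 of the 17 passed, against 0.0233% of all probes. The same 4 probes were higher on each LPS array than on each untreated array, which 4.34% of all probes were, and 0 were lower on each (3.23% of all). The median log FC over the 17 probes was 0.10, against 0.0079 over all probes. A bulk signal does not tell a change in RNA per cell from a change in which cells are present.

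Dusp1, a nuclear phosphatase that acts mainly on p38 and JNK, was measured by 1 probe (ILMN_2622983). Its signal was 9.74, 9.48 and 8.67 on the untreated arrays and 11.79, 12.30 and 11.85 on the LPS arrays. With hBD3 alone it was 9.87, 10.06 and 9.46, and with LPS plus hBD3 it was 10.36, 10.63 and 10.29. The untreated and hBD3 arrays overlapped, the LPS plus hBD3 arrays lay above both of these groups, and the LPS arrays lay above all others. With LPS Dusp1 rose by 2.68 (SE 0.26, 6.42-fold, adjusted p = 0.00127 by limma), and the rise was 2.78 without LPS replicate 1. Untreated replicate 3 was the lowest of the 12 arrays for this probe, and the untreated group had the largest SD (9.30 ± 0.56, against 9.80 ± 0.30 with hBD3, 11.98 ± 0.28 with LPS and 10.43 ± 0.18 with LPS plus hBD3).

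Dusp2, a nuclear phosphatase of activated immune cells that acts on ERK and p38, had the largest log FC with LPS among the member probes. Its probe ILMN_3009243 gave 6.99, 7.73 and 7.35 on untreated arrays and 9.94, 10.87 and 10.93 on LPS arrays. On the hBD3 arrays it gave 7.21, 7.44 and 7.25, and on the LPS plus hBD3 arrays 7.84, 8.34 and 8.18. Every LPS array was above every other array, and every LPS plus hBD3 array was above every untreated and every hBD3 array. The log FC with LPS was 3.22 (SE 0.26, 9.34-fold, adjusted p = 0.000265 by limma) and was 3.52 without LPS replicate 1, the lowest of the LPS arrays. This probe ranked 8 of 25697 by the size of its log FC with LPS, and Dusp1 ranked 10.

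The other Dusp2 probe, ILMN_1242406, gave 6.04, 6.38 and 6.20 on untreated arrays, 6.16, 6.20 and 6.24 with hBD3, 7.96, 8.85 and 8.83 with LPS, and 6.69, 6.91 and 6.58 with LPS plus hBD3. The order of the groups was that of ILMN_3009243, and again LPS replicate 1 was the lowest LPS array. The log FC with LPS was 2.34 (SE 0.20, 5.06-fold, adjusted p = 0.000533 by limma). The probes correlated at r = 0.99 over the 12 arrays, while the log FC of ILMN_1242406 was smaller in 3 of 3 replicates. After background correction with neqc the log FC of the Dusp2 probes with LPS were 3.48 and 2.92.

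Dusp8, a phosphatase of JNK and p38, rose less than Dusp1 and Dusp2. Its probe (ILMN_1228031) gave 7.23, 7.09 and 6.97 on untreated arrays, 7.28, 7.30 and 7.01 with hBD3, 7.86, 8.02 and 8.05 with LPS, and 7.65, 7.45 and 7.17 with LPS plus hBD3. The LPS arrays lay above all others, while the LPS plus hBD3 arrays overlapped those of the untreated and hBD3 groups. The log FC with LPS was 0.89 (SE 0.12, 1.85-fold, adjusted p = 0.0226 by limma). This call was the least secure of the 4. It was lost under median scaling (adjusted p = 0.764), under neqc (0.0540) and when the compared groups alone were fitted (0.0827). It was also lost without LPS replicates 2 (0.158) or 3 (0.139), untreated replicates 2 (0.134) or 3 (0.156) or LPS plus hBD3 replicate 2 (0.0575). Its log FC stayed between 0.82 and 1.05 under all 20 alternatives.

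**Figure D1:**
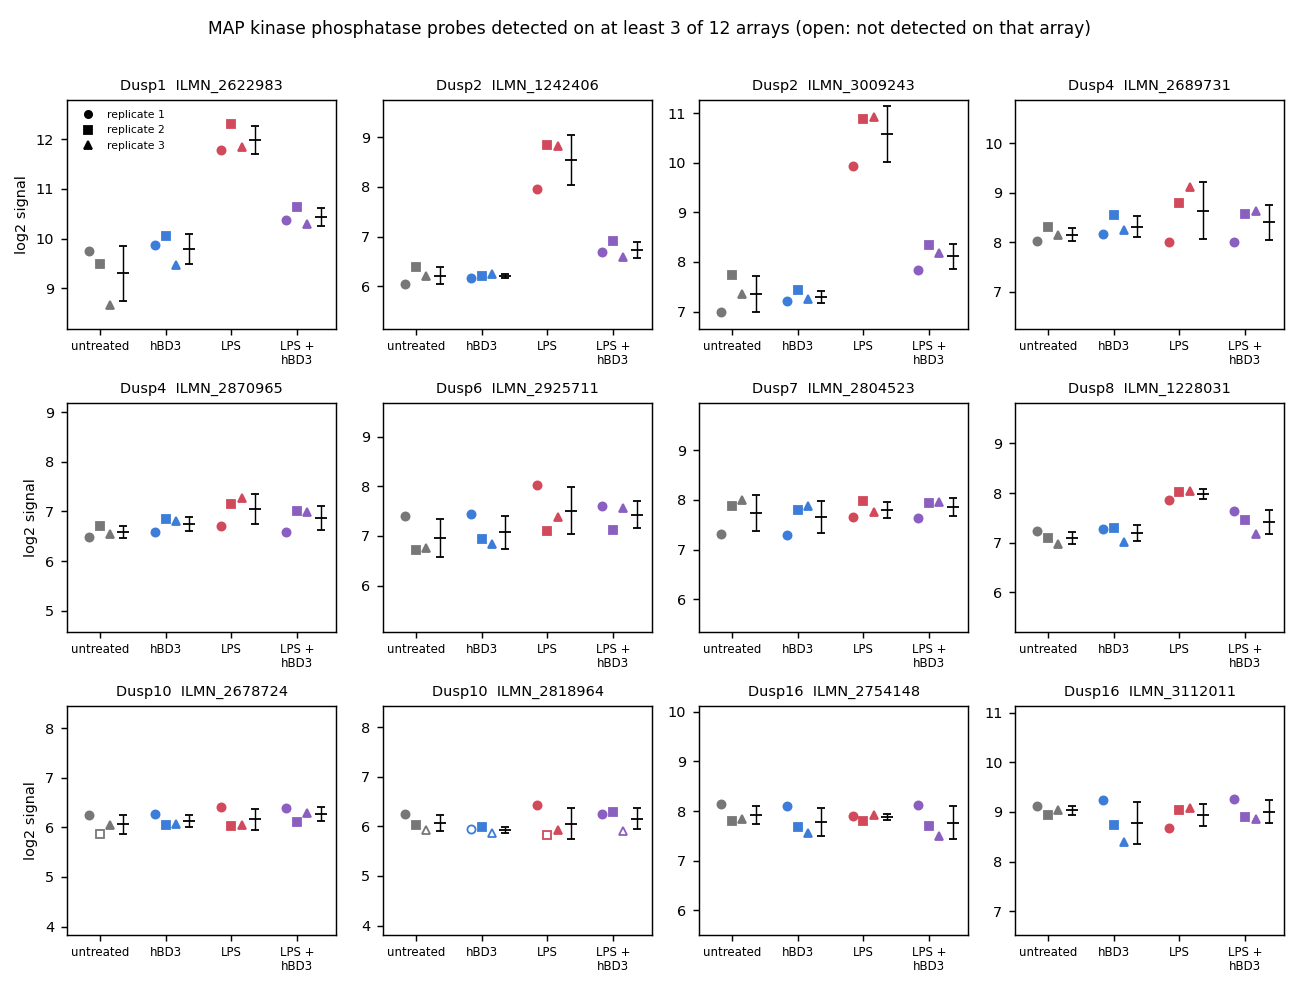
Log2 signal (y axis) of the 12 DUSP probes detected on at least 3 arrays, by group (x axis). Each panel is 1 probe, each point 1 array, its shape the replicate number, open where the probe was not detected, and the bars are the mean ± SD of 3 arrays. The y axes have equal spans, and only Dusp1, Dusp2 and Dusp8 had LPS arrays that lay above all other arrays.

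The other nuclear member on the array, Dusp4, which acts on ERK and JNK, did not pass the test. Its probe ILMN_2689731 gave 8.03, 8.30 and 8.14 on untreated and 8.0, 8.79 and 9.12 on LPS arrays, so that LPS replicate 1 was below all 3 untreated arrays and the other LPS arrays above them. The log FC was 0.48 (SE 0.26, 95% confidence interval -0.08 to 1.05) and was 0.79 without LPS replicate 1. By the probe ILMN_2870965 the log FC was 0.47 (SE 0.16), or 0.63 without LPS replicate 1. Its unadjusted p was 0.0130 and its adjusted p was 1.00 by limma. Its LPS values were 6.70, 7.16 and 7.28 and its untreated values 6.48, 6.71 and 6.54, which overlap by a narrow margin. These Dusp4 probes correlated at r = 0.94 over the 12 arrays. The remaining Dusp4 probe was detected on 1 array, at 6.01, with a detection p of 0.00251.

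Of the cytoplasmic phosphatases that act on ERK, Dusp6 and Dusp7 were detected and neither passed the test. The detected Dusp6 probe (ILMN_2925711) gave 7.41, 6.72 and 6.76 on untreated, 7.45, 6.94 and 6.84 on hBD3, 8.03, 7.11 and 7.38 on LPS and 7.61, 7.12 and 7.56 on LPS plus hBD3 arrays. Replicate 1 was the highest array in each of the 4 groups. The log FC with LPS was 0.54 (SE 0.27, 95% confidence interval -0.04 to 1.13). Between arrays of the same number the difference was 0.62, 0.39 and 0.62, so it was positive in 3 of 3, and without LPS replicate 1 the log FC was 0.27. Dusp7 had a mean of 7.74 ± 0.37 untreated and 7.80 ± 0.16 with LPS, a log FC of 0.06 with an interval of -0.38 to 0.49. Dusp9, another member of this branch, was not detected on any array.

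Dusp10 and Dusp16, which act mainly on JNK and p38 and share this preference with Dusp8, showed no called difference. The Dusp16 probe ILMN_3112011 was at 9.03 ± 0.09 untreated and 8.93 ± 0.22 with LPS, a log FC of -0.10 with an interval of -0.53 to 0.33. The other detected Dusp16 probe (ILMN_2754148) was at 7.92 ± 0.18 and 7.88 ± 0.06, a log FC of -0.04 with an interval of -0.42 to 0.34. For the Dusp10 probes the log FC with LPS was 0.10 and -0.01, with intervals of -0.18 to 0.39 and -0.35 to 0.33. The upper bounds of the detected Dusp16 probes, 0.33 and 0.34, lay below the log FC of Dusp8. The Dusp10 signals lay near the detection limit, so their intervals may not bound a change in RNA. With neqc the log FC of the Dusp10 probes with LPS were 0.17 and -0.03.

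With hBD3 added to LPS, the Dusp2 signal was lower than with LPS alone. In LPS plus hBD3 against LPS, 2 of the 17 DUSP probes fell, both of Dusp2, and 0 rose (limma), against 0.0545% and 0% of all probes. The 4 probes of Dusp1, Dusp2 and Dusp8 were lower on each LPS plus hBD3 array than on each LPS array (4.39% of all probes were), and 1 was higher on each (3.50% of all probes), the Dusp16 probe that was detected on no array. The median log FC over the 17 probes was -0.07, against -0.0047 over all probes. This comparison shares the LPS arrays with LPS against untreated, so a high LPS array raises both sizes.

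Dusp2 fell by 2.46 (SE 0.26, 5.50-fold lower, adjusted p = 0.00559 by limma) by probe ILMN_3009243. Arrays of the same number differed by -2.10, -2.53 and -2.75. By probe ILMN_1242406 the log FC was -1.82 (SE 0.20, 3.53-fold lower, adjusted p = 0.00698), with differences of -1.27, -1.94 and -2.25. Both probes were lower in 3 of 3. The call of ILMN_1242406 was lost without LPS plus hBD3 replicate 3 (adjusted p = 0.0553). Without LPS replicate 1 the log FC were -2.77 and -2.08.

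Dusp1 was at 10.43 ± 0.18 with LPS plus hBD3 and at 11.98 ± 0.28 with LPS alone, a log FC of -1.55 (SE 0.26, 2.92-fold lower) that missed the threshold, with an adjusted p of 0.136 and an unadjusted p of 9.01e-05 by limma. Its differences between arrays of the same number were closer together than those of Dusp2, at -1.42, -1.67 and -1.56. With the replicate number as a block the adjusted p was 0.00321. It also passed under median scaling (0.0316), with a trended and robust variance (0.0316), over the detected probes only (0.0477) and without untreated replicate 3 (0.0181), the array with the lowest Dusp1 signal. For Dusp8 the log FC was -0.56 (SE 0.12) with an adjusted p of 0.682 by limma, and with differences of -0.22, -0.57 and -0.88.

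**Figure D2:**
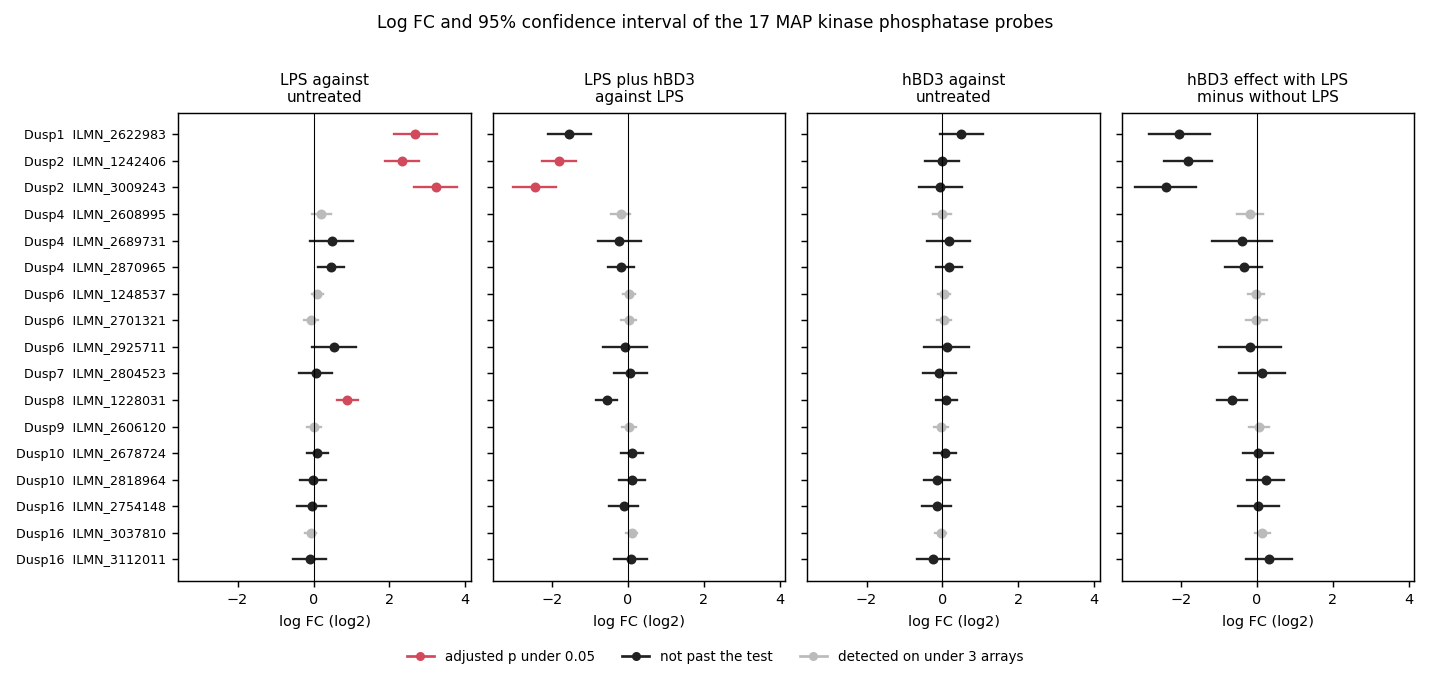
Log FC on the log2 scale (x axis) of the 17 DUSP probes (y axis) in 4 comparisons, with limma's 95% confidence intervals as lines. Red points passed the test, which 4 probes did with LPS, 2 with LPS plus hBD3 against LPS and 0 in the other panels, and grey points are probes detected on under 3 arrays.

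The members that LPS did not raise past the threshold also showed no called difference here. For the detected Dusp6 probe LPS plus hBD3 was within 0.07 of LPS (log FC -0.07, interval -0.66 to 0.51), but its sign was not settled. It was positive without LPS replicate 1 (0.18), without LPS plus hBD3 replicate 2 (0.09) and with array weights (0.15), and at -0.32 under median scaling. The detected Dusp4 probes had log FC of -0.23 and -0.18, and without LPS replicate 1 of -0.54 and -0.34. Dusp7 was at 0.06, the Dusp10 probes at 0.10 and 0.09, and the detected Dusp16 probes at 0.07 and -0.11.

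Compared with untreated BMDM, LPS plus hBD3 left Dusp1, Dusp2 and Dusp8 with smaller differences than LPS alone. No DUSP probe passed the test in LPS plus hBD3 against untreated (0 of 17, limma, as for 0% of all probes). At an unadjusted p under 0.05, 4 of 17 were higher and 0 lower, against 1.36% and 1.12% of all probes. That count of 4 was 2 under median scaling, 2 without untreated replicate 3 and 1 without LPS plus hBD3 replicate 2. In the other direction, it was 5 without untreated replicate 1 or LPS replicate 1, and 7 with the replicate number as a block. The log FC was 1.13 for Dusp1, 0.76 and 0.52 for Dusp2 and 0.33 for Dusp8, each with an adjusted p of 1.00. The Dusp1 and Dusp2 probes were higher on each LPS plus hBD3 array than on each untreated array (3 of 17 probes, against 3.75% of all), and 0 were lower on each (3.41%). These sizes depended on the scaling. Under median scaling the log FC were 0.87 for Dusp1, 0.50 and 0.34 for Dusp2 and 0.10 for Dusp8, while those with LPS alone were 2.78, 3.33, 2.39 and 0.91.

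For the detected Dusp6 probe the log FC against untreated was 0.47 (interval -0.12 to 1.05) with LPS plus hBD3 and 0.54 with LPS. Under median scaling they were 0.24 and 0.56.

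No called difference was found with the peptide alone. In hBD3 against untreated BMDM 0 of 17 DUSP probes passed the test (limma), as for 0% of all probes, and 0 of 17 had an unadjusted p under 0.05, against 0.988% higher and 1.40% lower of all probes. Dusp1 had the largest value, a log FC of 0.50 (SE 0.26, interval -0.06 to 1.07), and was higher in 3 of 3 arrays of the same number, by 0.13, 0.58 and 0.79. Without untreated replicate 3, the lowest array for this probe, the log FC was 0.19. The Dusp2 probes were at -0.06 and -0.01, with intervals of -0.62 to 0.51 and -0.45 to 0.44. Dusp8 was at 0.10 (interval -0.17 to 0.38).

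The effect of LPS in the presence of the peptide was also read from LPS plus hBD3 against hBD3, which shares no array with LPS against untreated. Here 0 of 17 probes passed the test (limma; 0% of all probes). Of these, 3 had an unadjusted p under 0.05 (2.23% of all were higher and 1.54% lower at that level), with log FC of 0.63 for Dusp1 and 0.82 and 0.52 for Dusp2. Under median scaling these log FC were 0.35, 0.49 and 0.29, and 1 probe was under that p, as was also the case without LPS plus hBD3 replicate 2. The count was 2 without hBD3 replicates 2 or 3, and 4 with the replicate number as a block or without LPS plus hBD3 replicate 3. In the quantile normalized values the 3 probes of Dusp1 and Dusp2 were also higher on each array of the one group than on each of the other. Of all probes 5.27% were, and 0 of the 17 were lower on each (4.47%).

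Whether hBD3 acted differently with LPS than without it was tested as an interaction over the 4 groups. The difference was -2.05 for Dusp1 (SE 0.36, adjusted p = 0.309 by limma), -2.40 (SE 0.36, 0.137) and -1.81 (SE 0.29, 0.174) for Dusp2 and -0.66 (SE 0.18, 1.00) for Dusp8. Thus 0 of 17 passed, as for 0% of all probes, while these 4 had an unadjusted p under 0.05, against 1.42% of all probes in that direction and 1.14% in the other, which 0 of 17 had. Without LPS replicate 1, both Dusp2 probes passed (adjusted p = 0.00352 and 0.000962, at -2.71 and -2.07). Both also passed under median scaling, with array weights and with a trended and robust variance, and 1 of them over the detected probes only. With the replicate number as a block, Dusp1 (adjusted p = 0.00961 by limma) and both Dusp2 probes (0.00156 and 0.0138) passed, against 0.0778% of all probes. That block rests on a pairing read from the data, which the labels do not state.

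Among probes of the same gene, those of Dusp2 and Dusp4 correlated most closely. Over the 12 arrays r was 0.99 for Dusp2, 0.94 for the detected Dusp4 probes, 0.76 for the detected Dusp16 probes and 0.56 for Dusp10. For Dusp6 the detected probe correlated at 0.75 with one undetected probe and at 0.002 with the other. The undetected Dusp16 probe had r of -0.32 and -0.08 with the detected ones. These correlations describe probes read on the same 12 arrays in 4 groups.

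**Figure D3:**
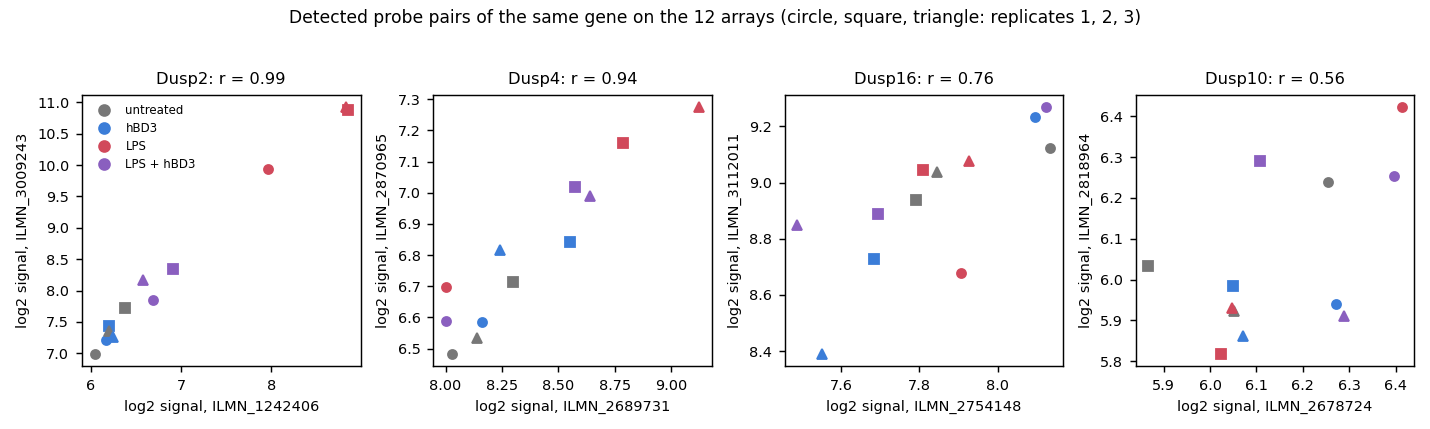
Log2 signal of one probe (x axis) against that of another probe of the same gene (y axis) on the 12 arrays, coloured by group, for Dusp2, Dusp4, Dusp16 and Dusp10. The Dusp2 points form a line on which the LPS arrays are the highest (r = 0.99), and the Dusp10 points scatter within a narrow range near the detection limit (r = 0.56).

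Dusp1, Dusp2 and Dusp8 followed each other over the 12 arrays (r of 0.92 for Dusp1 with either Dusp2 probe, 0.95 for Dusp1 with Dusp8, and 0.90 and 0.92 for Dusp2 with Dusp8). Among 9543 probes of other named genes detected on at least 3 arrays, the 5 most like Dusp1 were of Cdc42ep2 (r = 0.96), Cxcl2, Socs3, Cd69 and Ier3. For Dusp2 they were of Socs3 (r = 0.99), Nfkbia, Nfkbiz, Tnfaip3 and Csrnp1 by one probe, and of Csrnp1 (r = 0.98), Socs3, Cdc42ep2, Nfkbia and Tnfaip3 by the other. For Dusp8 they were of Ccrl2 (r = 0.97), Sgk1, Cdc42ep2, Errfi1 and Phlda1. These genes had log FC of 0.78 (Sgk1) to 4.03 (Cxcl2) with LPS and of -0.60 (Sgk1) to -2.50 (Socs3) in LPS plus hBD3 against LPS. They were picked on the same arrays for following probes that passed with LPS. Their directions and calls therefore follow from the pick and test nothing further. All passed the test with LPS except Ccrl2 (adjusted p = 0.0573 by limma) and Errfi1 (0.552), while 0.105% of all probes rose past it. In LPS plus hBD3 against LPS, Cxcl2 (0.142), Nfkbia (0.194), Tnfaip3 (0.174), Nfkbiz (0.0749), Ccrl2 (0.738) and Errfi1 did not pass. The fall of Sgk1 (0.0394) passed under only 4 of the 20 alternatives, and those of Cdc42ep2 and Csrnp1 under 16 each. Of the genes that did not pass, Nfkbiz passed under 6 alternatives, Nfkbia and Tnfaip3 under 5 each and Cxcl2 under 4. Ccrl2 and Errfi1 passed under 0. Each r describes 12 arrays in 4 groups, whose treatments the points share. Under median scaling, neqc and without LPS replicate 1, 3 to 5 of each 5 were kept.

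Genes of the kinase cascade that DUSP phosphatases act on were read beside them. In LPS against untreated, 0 of 11 MAPK genes measured and 0 of 6 MAP kinase kinases passed the test (limma). Of 10 MAP kinase kinase kinases and 7 kinases downstream of MAPK, 0 passed as well. Detected on at least 1 array were 4 of the 11, 4 of the 6, 7 of the 10 and 6 of the 7. With 0.105% of all probes passing, these counts do not set the lists apart from other probes. The largest values among the MAPK were those of Mapk6 (log FC 0.15) and Mapk14, which encodes p38α (-0.15). Map2k2, a kinase of ERK, was at -0.14, Map2k5 at 0.06, Mknk2 at -0.11 and Rps6ka5 at 0.10. Map3k8, the kinase that couples TLR4 to ERK, was at 1.20 (SE 0.20, adjusted p = 0.0740) and lay close to the threshold. It passed under 7 of the 20 alternatives, among them median scaling (0.0467), array weights (0.0150), a trended and robust variance (0.0119), the detected probes only (0.0338), and without LPS replicate 1 (0.0258) or untreated replicate 2 (0.0291). In LPS plus hBD3 against LPS it was at -1.01 (adjusted p = 0.353), and it passed with the replicate number as a block (0.00225) and under median scaling (0.0402). Map3k14 was at 0.44 (SE 0.17, adjusted p = 1.00).

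Targets of the pathway included genes that rose with the DUSP members. Of 12 early target genes of MAPK signaling, 5 rose and 0 fell with LPS, against 0.105% and 0% of all probes. The median log FC was 0.79 over the list and 0.0079 over all probes. The list was chosen with earlier results of these data known, so its shares and medians do not test the pathway. The 5 that rose were Egr1 (4.34, SE 0.47), an early zinc finger factor, Ier3 (2.48, SE 0.16), Fos (2.40, SE 0.30), the AP-1 subunit, Phlda1 (2.21, SE 0.14) and Csrnp1 (1.69, SE 0.18). Fos was also the only 1 of 14 transcription factors phosphorylated by MAPK that rose, and its call (adjusted p = 0.00937) did not hold without LPS replicate 2 (0.0531) or untreated replicates 1 (0.0597) or 3 (0.0755). When the compared groups alone were fitted, the calls of Egr1 (0.0626), Fos (0.138) and Csrnp1 (0.139) were lost. In LPS plus hBD3 against LPS, 3 of the 12 early targets fell, Ier3 (-1.59), Csrnp1 (-1.48) and Phlda1 (-1.38), and 0 rose, against 0.0545% and 0% of all probes, with a list median of -0.64 against -0.0047. The call of Phlda1 was lost under median scaling (adjusted p = 0.158, log FC -1.70), and all 3 were lost when the compared groups alone were fitted (0.0804 for Ier3 and Phlda1 and 0.562 for Csrnp1). The call of Csrnp1 (adjusted p = 0.0112) was lost without LPS plus hBD3 replicate 1 (0.0826) or 3 (0.0785) or LPS replicate 3 (0.0802). For Egr1 the value was -2.54, with an adjusted p of 0.246. It passed with the replicate number as a block (0.000119), under median scaling (0.0224), with array weights (0.0393) and without LPS replicate 1 (0.0346).

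Of 17 other inhibitors of the pathway measured, which include genes of the Sprouty, Spred and PP2C families, 0 passed with LPS, and the list median was 0.02. Only 9 of these 17 were detected on at least 1 array. The largest value was that of Errfi1, an inhibitor of EGF receptor signaling, at 1.10 (SE 0.26, adjusted p = 0.552), with -0.84 in LPS plus hBD3 against LPS. Of 15 atypical and other dual-specificity phosphatases, of which 8 were detected on at least 1 array, 0 passed, with a list median of 0.03. Neither count sets its list apart from all probes, of which 0.105% passed. Among these phosphatases the largest values were those of Dusp3 (-0.44, SE 0.31) and Dusp22 (0.17, SE 0.19).

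**Figure D4:**
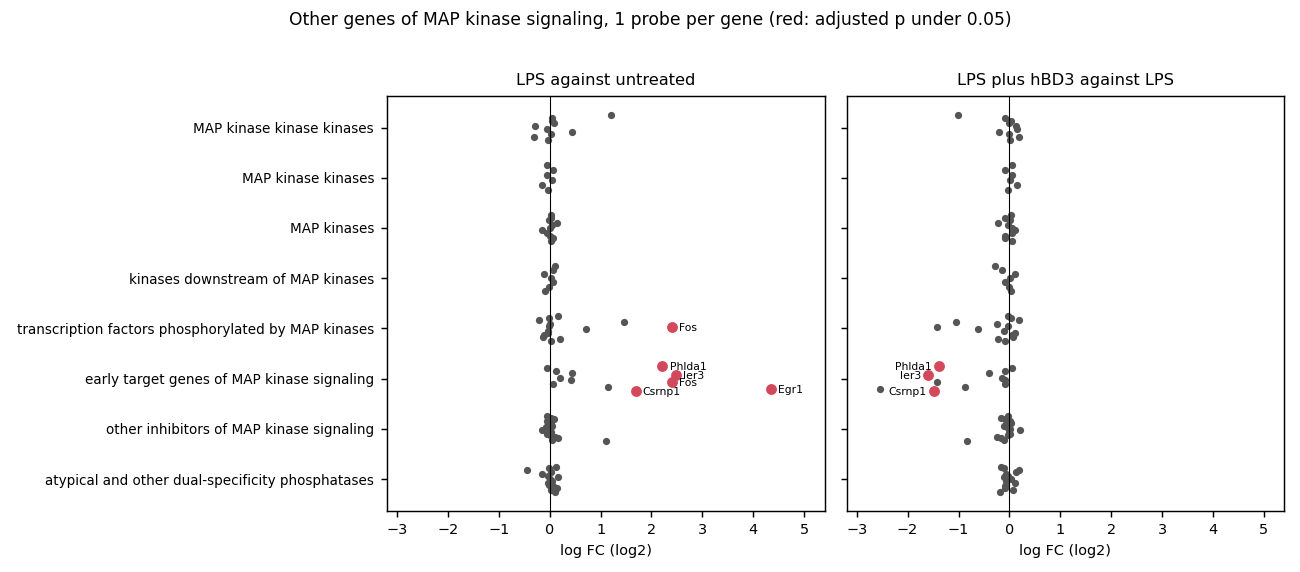
Log FC on the log2 scale (x axis) of the measured genes of 8 lists of MAPK signaling genes (y axis), 1 point per gene of each list, with LPS (left panel, against untreated) and with the peptide added (right panel, against LPS). Red, named points passed the test, which 5 early target genes did with LPS and 3 of them against LPS alone, and the kinase lists hold 0 red points. In the left panel Fos is also red in the list of transcription factors phosphorylated by MAPK.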

How the data were processed

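Gene expression was measured on 12 Illumina MouseRef-8 v2.0 arrays, 3 for each of 4 groups, from biotinylated cRNA. The deposited file holds linear signal intensity per probe, which the authors summarized in BeadStudio without normalization between arrays. Detection p-values of BeadStudio stand beside them, per the file headers. A second deposited table holds intensity values that the authors quantile normalized, used here only to vary the normalization. Among tools, limma is listed in the submitters' processing notes, without a version. Neither the version of BeadStudio nor the array positions on BeadChips is given in the sources used here. All per-sample columns were used.

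For the main results, signals of the 12 arrays were quantile normalized and log2 transformed, without background correction or filtering. Group means were fitted to all 12 arrays with limma 3.58.1 (R 4.3.3), and p-values received Benjamini-Hochberg adjustment over the 25697 probes of each comparison. All p-values are two-sided and from limma. The platform's probe table named 23978 probes with 1 symbol and left 1719 unnamed. For genes of lists, the probe of highest mean was taken. The number of arrays limits the precision. Each p-value sets a difference between group means against the spread between arrays within groups, which limma moderates over all probes. Replicate numbers were not used in the main fit. The fit was checked on simulated data with independent errors, without a replicate effect and without normalization. That check does not cover the correlation between arrays of the same number.

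The members and lists were chosen with earlier results of these data known. Named were all member probes, the 5 probes most correlated with each member probe that passed with LPS, and, per list, up to 4 genes past the test or else the 2 with the largest log FC with LPS. Csrnp1 also completes the count of its list. Promoter windows came from RefSeq (GRCm38.p6) and were searched in Python 3.11.15. No promoter window was used for Dusp4 and Dusp9, and no protein sequences were used.

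The alternatives were median scaling, limma's neqc (offset 16), the authors' value table, a trended and robust variance, array weights, a fit to only the compared groups, a replicate block, a restriction to 10123 probes (detected on at least 3 arrays), and leaving out each of the 12 arrays. Deviations of same-numbered arrays from their group means correlated over all probes at 0.38, 0.60 and 0.66 between LPS and LPS plus hBD3, so the numbers were taken to pair these groups. This pairing comes from the data and is not stated in the labels. Over all 18 pairs of groups and numbers the correlation was 0.07 to 0.66, and 17 were over 0.1, the exception being replicate 2 of untreated and LPS.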

Additional observations from a re-analysis of the deposited data

How the results depend on the processing

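Of 102 log FC of DUSP probes, 6 passed the test, and 0 of these changed sign under the 20 alternatives. Of the 96 others, 47 changed sign under at least 1 alternative and 4 passed under at least 1. In LPS against untreated, 4 DUSP probes passed, 3 or 4 without any single array and 0 when the compared groups alone were fitted, where 5 had an unadjusted p under 0.05 by limma. In LPS plus hBD3 against LPS, 2 passed, 1 to 3 without any single array (1 without LPS plus hBD3 replicate 3) and 0 with the compared groups alone, where 4 had an unadjusted p under 0.05. With the compared groups alone, Dusp1 had an adjusted p of 0.0997 with LPS and the Dusp2 probes of 0.0642 and 0.0997, in a fit with fewer arrays. In the interaction 0 passed, but 2 did under median scaling, 2 with array weights, 2 with a trended and robust variance, 1 over the detected probes only and 0 to 2 without any single array (2 without LPS replicate 1). The cause of these differences was not tested.

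With the replicate number as a block, 4 DUSP probes passed with LPS, 3 in LPS plus hBD3 against LPS and 3 in the interaction, where the adjusted p was 0.00961 for Dusp1 and 0.00156 and 0.0138 for Dusp2. Over all 18 pairs each array correlated best with its own number, a hint from the data and not from the design. The block changed no other call of a DUSP probe. Among the other named genes of the lists in LPS against untreated, Map3k8 (adjusted p = 0.000313) and Errfi1 (0.0426) also passed with the block. Signals of Dusp9, Dusp10 and 4 further probes were near or under the detection limit, so small changes there may not have been detectable.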
